A study of Mus musculus with 10 samples.

Results

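The G1 regulators examined here were the D-type cyclin genes Ccnd1, Ccnd2 and Ccnd3, the kinase genes Cdk4 and Cdk6, the kinase inhibitor genes Cdkn1a, Cdkn1b and Cdkn1c, and the transcription factor genes Myc and Mycn. They were chosen by symbol, with the probe set of the highest mean used where a gene had several. All 10 were measured, each by 1 probe set, among 22180 genes in all. The data were 10 Affymetrix arrays of RNA from mouse lung cells sorted at postnatal day 4 and labelled as type 2 alveolar epithelial cells (AEC2s), the cells that make surfactant. The age is that of the sample titles and age labels; a description shared by all samples speaks of P3 and adult cells instead.

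The 5 SP-C+ samples came from SftpcCreERT2-R26REYFP mice and were sorted by YFP after 24 h of lineage tracing, so the Sftpc promoter, that of the surfactant protein C gene, drove the Cre. The 5 Axin2+ samples came from mice whose genotype is given as Axin2CreERT2-TdTom, and were sorted as TdTomato+, EpCAM+, CD31- and CD45-. Axin2 is a target of Wnt signalling, and no AEC2 marker was named in that gate. All mice shared a mixed background of C57BL/6, 129S6 and CD-1, and the treatment field of every sample says that none was given. No lineage tracing time is given for the Axin2+ samples, so it may differ from that of the SP-C+ samples. Mouse line, reporter, gate and any difference in tracing time go together with the cell label and cannot be told apart from it. The labels do not say whether replicates were separate or pooled animals, so p-values measure the spread between these samples, which may be technical in part.

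A cell decides in G1 whether to divide again. D-type cyclins bind Cdk4 or Cdk6 and phosphorylate the retinoblastoma family proteins, which frees E2F transcription factors to switch on the genes of S phase. The Cdkn1 proteins p21, p27 and p57 bind cyclin-kinase complexes and can hold the cell in G1, and Myc and N-Myc, working as dimers with Max, drive growth and entry into the cycle. In the lung, N-Myc is known for its part in the growth of the embryonic epithelium, and AEC2s are the cells that divide to renew the alveolus.

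Promoter sequence was available for 6 of the members (RefSeq, assembly GRCm38.p6), and 3 of these held 1 of the motifs searched in the 250 bases before the start of transcription. The motifs were the E-box CACGTG, to which Myc and Max bind, and TTTNGCGC, a form of the E2F site, both read on both strands. Capitals mark the matches. Cdk4 and Mycn are shown because both rose between the groups and their windows held several matches, and Cdk6 because its window held the same motif as that of Cdk4 while its difference did not pass the test.
Cdk4, chr10:127063285-127063534, plus strand: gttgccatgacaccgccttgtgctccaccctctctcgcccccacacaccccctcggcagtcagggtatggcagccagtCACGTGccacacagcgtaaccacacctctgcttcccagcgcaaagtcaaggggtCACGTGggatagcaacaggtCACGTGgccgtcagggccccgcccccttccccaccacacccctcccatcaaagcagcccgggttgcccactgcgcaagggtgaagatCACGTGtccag
Cdk6, chr5:3343643-3343892, plus strand: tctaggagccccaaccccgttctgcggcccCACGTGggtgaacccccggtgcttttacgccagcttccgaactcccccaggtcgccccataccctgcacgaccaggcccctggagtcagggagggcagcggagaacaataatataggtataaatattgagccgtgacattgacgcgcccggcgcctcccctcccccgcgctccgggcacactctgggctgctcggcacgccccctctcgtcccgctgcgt
Mycn, chr12:12941837-12942086, minus strand: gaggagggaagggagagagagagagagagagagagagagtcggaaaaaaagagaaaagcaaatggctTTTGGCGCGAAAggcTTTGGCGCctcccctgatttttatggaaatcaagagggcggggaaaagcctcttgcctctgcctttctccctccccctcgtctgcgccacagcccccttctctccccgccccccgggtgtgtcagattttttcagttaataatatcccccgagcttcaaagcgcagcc
The Cdk4 window held 4 E-boxes, whose first bases lay 172, 118, 98 and 11 bases before the start. Of 32851 promoter windows of the same length, 1978 (6.02%) held at least 1 E-box and 7 (0.0213%) held at least 4. The Mycn window held 3 E2F matches, the first and second of which overlap on opposite strands, against at least 1 match in 372 windows (1.13%) and at least 3 in 2 windows. The windows of Ccnd3, Cdkn1a and Cdkn1b held neither motif in these letters. A match describes the sequence and shows no binding in these cells.

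The arrays did not all look alike within a group. The mean of 24 S phase and mitosis genes was 7.12, 7.16 and 7.14 (log2 value) in SP-C+ replicates 1, 2 and 3, but 7.79 and 8.0 in SP-C+ replicates 4 and 5, and it lay between 7.88 and 8.80 in the Axin2+ arrays. SP-C+ replicate 1 also had the highest mean of 10 endothelial markers, 7.44 against 6.20 to 6.79 in the other SP-C+ arrays and 6.33 to 6.56 in the Axin2+ arrays. For each member, and for other named genes whose call or size depends on them, values without these arrays are given. AEC2 markers were bright in both groups, with array means of 12.78 to 12.89 in SP-C+ and 12.53 to 12.67 in Axin2+, and 4 of 15 fell and 0 rose (limma; 9 and 0 at an unadjusted p under 0.05). Y-linked expression was uneven between the groups and within each group, so the arrays of a group were not all repeats of 1 sample. The mean of 3 Y-linked genes was 7.1, 9.3, 9.1, 4.1 and 9.4 in SP-C+ replicates 1 to 5. In Axin2+ replicates 1 to 5 it was 3.9, 8.8, 3.9, 9.2 and 4.0.

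Markers of other lung epithelial cells moved with the Axin2+ label. All 15 AEC1 markers rose, led by Spock2, a proteoglycan gene (log2 difference 4.54), and their mean lay between 9.29 and 9.73 in SP-C+ arrays and between 11.61 and 11.96 in Axin2+ arrays. Of 14 ciliated cell markers, 13 rose, led by the cadherin-related gene Cdhr3 (4.36), with means of 5.67 to 5.86 against 7.90 to 8.24. Of 10 club cell markers, 6 rose, led by Scgb1a1 (2.73), with means of 7.60 to 7.90 against 8.64 to 9.11. In none of these 3 lists did a gene fall, by the adjusted test in limma or at an unadjusted p under 0.05. Among 10 endothelial markers none passed in limma (0 higher and 1 lower at an unadjusted p under 0.05). Among 10 mesenchymal markers 1 fell (Pdgfra, -0.49, not passed without SP-C+ replicates 1, 2 and 3). Among 9 leukocyte markers 1 rose (Csf1r, the macrophage growth factor receptor gene, 2.50), with 1 higher and 1 lower at an unadjusted p under 0.05. Csf1r was the only leukocyte marker with a positive difference, and the median of that list was -0.19. The mesenchymal means ranged from 5.84 to 6.38 in SP-C+ and from 5.80 to 6.06 in Axin2+ arrays, and the leukocyte means from 6.42 to 6.94 and from 6.51 to 6.68. The part of these other cell types in the results below was not tested. In such bulk samples a change in the number of cells of a type and a change in RNA per cell cannot be told apart.

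Of the 10 members, 7 passed the test between the groups, 5 higher and 2 lower in Axin2+ arrays (limma, Benjamini-Hochberg adjusted p under 0.05 over all genes). Cyclin D genes rose together with Cdk4 and Mycn, and Myc and Cdkn1a fell. Over all genes 17.6% passed, 8.61% higher and 8.95% lower. Centring each array on its median turned the 1909 higher and 1985 lower genes into 1561 and 4412, and Cdk4 no longer passed (0.20, adjusted p = 0.119). The median difference of the members was 0.35 against -0.045 for all genes. In 5 members the groups did not overlap, against 15.0% of all genes. Without SP-C+ replicates 1, 2 and 3 the members called numbered 3, namely Ccnd2, Ccnd3 and Mycn.

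**Figure D1:**
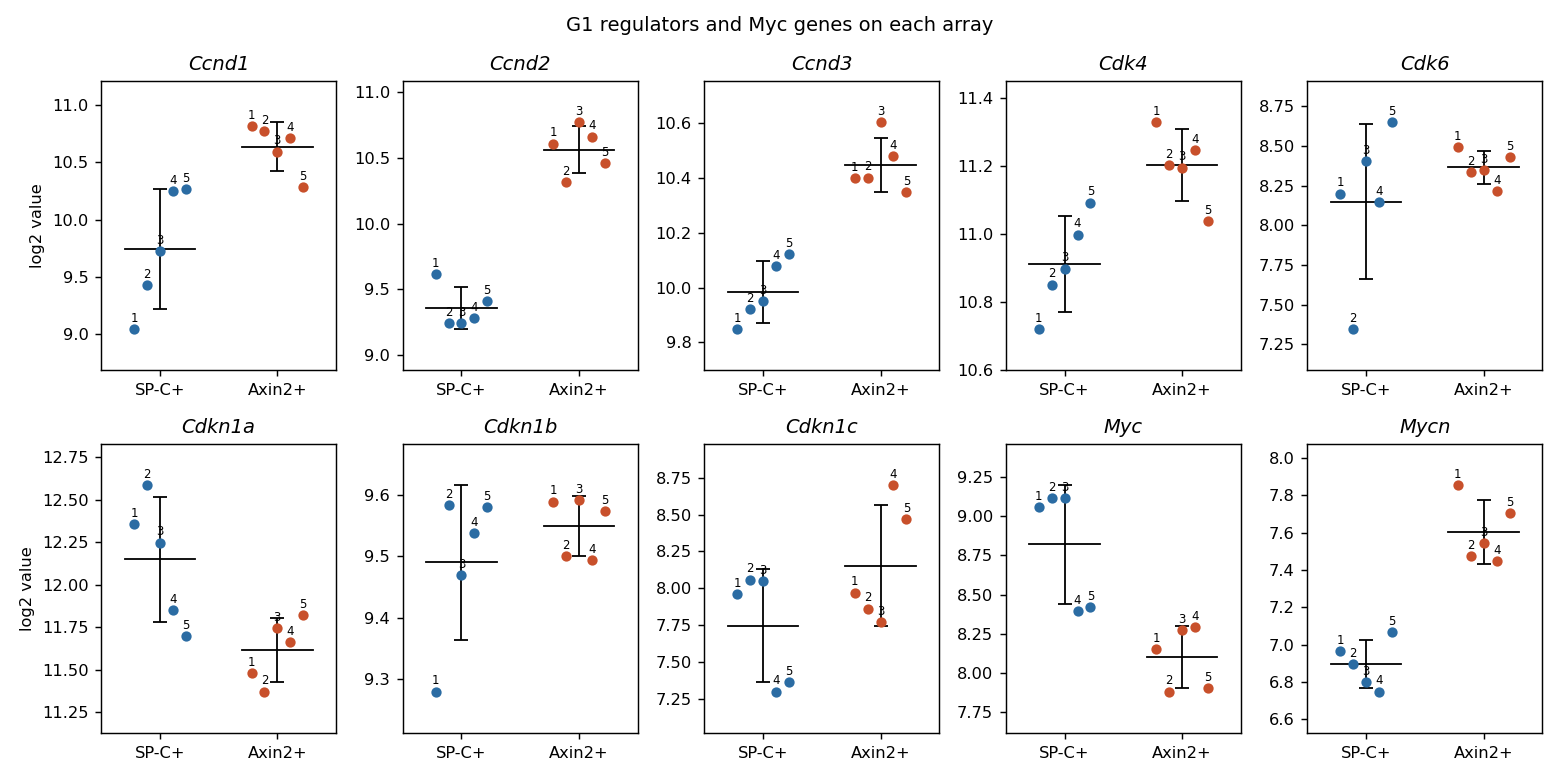
Log2 value of each member (vertical axis, own scale per panel) on the 5 SP-C+ (blue) and 5 Axin2+ (red) arrays, with replicate numbers, the group mean (line) and SD (bar). Ccnd1, Ccnd2, Ccnd3, Myc and Mycn do not overlap between the groups, and SP-C+ replicates 4 and 5 lie nearest the Axin2+ arrays for Ccnd1, Ccnd3 and Myc.

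Among the D-type cyclins, Ccnd2 showed the largest difference. Ccnd2 measured 9.62, 9.24, 9.24, 9.28 and 9.41 (log2 value) in SP-C+ replicates 1 to 5 and 10.61, 10.32, 10.77, 10.66 and 10.46 in Axin2+ replicates 1 to 5. The lowest Axin2+ array lay well above the highest SP-C+ array, which was replicate 1, the array with the highest endothelial markers. The means were 9.36 ± 0.16 (SD, n = 5) and 10.56 ± 0.18, a 2.31-fold difference (log2 difference 1.20 ± 0.10 SE, adjusted p = 3.23e-06 in limma). The difference kept its size, at 1.22, without SP-C+ replicates 1, 2 and 3 (adjusted p = 2.61e-04 in limma) and, at 1.20, without replicates 4 and 5, and it passed in all 21 alternative fits.

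Ccnd1, the cyclin D gene often named as a Wnt target, rose as well but followed the array. It measured 9.05, 9.43, 9.73, 10.25 and 10.26 in SP-C+ replicates 1 to 5 and 10.81, 10.77, 10.59, 10.71 and 10.28 in Axin2+ replicates 1 to 5. The groups did not overlap, but Axin2+ replicate 5 lay only 0.019 above SP-C+ replicate 5. The means were 9.74 ± 0.53 and 10.63 ± 0.21 (SD, n = 5), a 1.85-fold difference (0.89 ± 0.21 SE, adjusted p = 0.0106 in limma). Without SP-C+ replicates 1, 2 and 3, the arrays with low S phase and mitosis genes, the difference was 0.38 and did not pass (adjusted p = 0.120 in limma), and without replicates 4 and 5 it was 1.23 (adjusted p = 3.49e-04).

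Ccnd3, the third D-type cyclin gene, showed a smaller rise. It ranged from 9.85 to 10.12 in SP-C+ arrays, with a median of 9.95, and from 10.35 to 10.60 in Axin2+ arrays, with a median of 10.40. No SP-C+ array reached the Axin2+ range. The log2 difference was 0.46 ± 0.08 SE, 1.38-fold (adjusted p = 0.00143 in limma), and it was 0.35 without SP-C+ replicates 1, 2 and 3 (adjusted p = 0.0430 in limma).

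The cyclins also changed unequally. The within-array difference Ccnd2 minus Ccnd3 was -0.62 ± 0.22 (SD, n = 5) in SP-C+ and 0.12 ± 0.12 in Axin2+ arrays. The change of 0.74 gave an exact permutation p of 0.00794 (two-sided), the smallest that 252 assignments of the arrays allow, or 0.0212 adjusted over the 8 pairs of family members compared. Ccnd1 minus Ccnd2 changed by -0.31 (exact permutation p = 0.310, adjusted 0.354) and Ccnd1 minus Ccnd3 by 0.43 (exact permutation p = 0.0794, adjusted 0.127), so neither passed. Both of the latter depended on the SP-C+ arrays used. Without replicates 4 and 5 they were 0.036 and 0.69, of which the second passed (adjusted exact permutation p = 0.0286, the same for every pair that passed in that fit). For Ccnd1 minus Ccnd3 the arrays left out were the SP-C+ arrays nearest the Axin2+ arrays, so that pass is no added support. Without replicates 1, 2 and 3 the same changes were -0.84 and 0.033. No test was made there because 2 arrays against 5 allow no exact p below 0.0476 before adjustment.

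Of the kinase partners, Cdk4 showed a small rise and the difference of Cdk6 did not pass. Cdk4 measured 10.72, 10.85, 10.90, 11.0 and 11.09 in SP-C+ replicates 1 to 5 and 11.33, 11.20, 11.19, 11.25 and 11.04 in Axin2+ replicates 1 to 5. All but Axin2+ replicate 5 lay above every SP-C+ array. The difference was 0.29 ± 0.09 SE, 1.22-fold (adjusted p = 0.0368 in limma), a call lost in 11 of the 21 alternative fits, among them 7 of the 10 fits that left out 1 array (the highest adjusted p was 0.0895, with Axin2+ replicate 1 left out), the fit with the replicate number as a block (adjusted p = 0.113 in limma) and the fit without SP-C+ replicates 1, 2 and 3 (0.16, adjusted p = 0.365). Cdk6 measured 8.20, 7.35, 8.40, 8.15 and 8.65 in SP-C+ replicates 1 to 5 and between 8.21 and 8.49 in Axin2+ arrays, so the Axin2+ arrays lay inside the SP-C+ range. Its difference was 0.22 with a 95% interval of -0.19 to 0.63 (adjusted p = 0.506 in limma), and SP-C+ replicate 2 set much of it: without that array it was 0.015. The Cdk6 difference was -0.032 without SP-C+ replicates 1, 2 and 3 and 0.38 without replicates 4 and 5, and neither passed. Cdk6 minus Cdk4 within arrays changed by -0.074 (exact permutation p = 0.778, the same after adjustment).

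The Cdkn1 inhibitor genes did not move as a family. Cdkn1a, whose product p21 is induced by p53 and other stress and differentiation signals, measured 12.36, 12.59, 12.25, 11.85 and 11.70 in SP-C+ replicates 1 to 5 and 11.48, 11.37, 11.74, 11.66 and 11.82 in Axin2+ replicates 1 to 5. SP-C+ replicates 1, 2 and 3 were high, while replicate 4 lay just above the Axin2+ range and replicate 5 inside it. The difference was -0.53 ± 0.16 SE, 1.45-fold lower in Axin2+ arrays (adjusted p = 0.0352 in limma). This call was lost in 10 of the 21 alternative fits, 7 of them without 1 array (the highest adjusted p was 0.0856, with Axin2+ replicate 2 left out), another with the replicate number as a block (adjusted p = 0.0904 in limma), and the difference was -0.16 without SP-C+ replicates 1, 2 and 3 (adjusted p = 0.511).

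Cdkn1b, which encodes p27, stood nearly level. It ranged from 9.28 to 9.58 in SP-C+ arrays and from 9.49 to 9.59 in Axin2+ arrays, and the difference was 0.060 with a 95% interval of -0.11 to 0.23 (adjusted p = 0.671 in limma). The lowest value was that of SP-C+ replicate 1, the array with the highest endothelial markers, and without that array the difference was 0.0070. The Cdkn1b difference was -0.0092 without SP-C+ replicates 1, 2 and 3 and 0.11 without replicates 4 and 5, and neither passed.

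Cdkn1c, the imprinted gene of p57, split both groups. It measured 7.96, 8.06, 8.05, 7.30 and 7.36 in SP-C+ replicates 1 to 5 and 7.97, 7.86, 7.77, 8.70 and 8.47 in Axin2+ replicates 1 to 5. Axin2+ replicates 4 and 5 were the highest of all arrays, and SP-C+ replicates 4 and 5 the lowest. The difference of 0.41 had a 95% interval of -0.044 to 0.86 and did not pass (adjusted p = 0.220 in limma). It was 0.83 without SP-C+ replicates 1, 2 and 3 (adjusted p = 0.0534 in limma) and 0.13 without replicates 4 and 5 (adjusted p = 0.713).

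Set against each other within arrays, Cdkn1a minus Cdkn1c was 4.40 ± 0.15 (SD, n = 5) in SP-C+ and 3.46 ± 0.36 in Axin2+ arrays. The groups did not overlap, and the change of -0.94 passed (exact permutation p = 0.00794, adjusted 0.0212). It was nearly the same without SP-C+ replicates 1, 2 and 3 (-0.98) and without replicates 4 and 5 (-0.91), unlike the difference of either gene alone. Cdkn1a minus Cdkn1b changed by -0.59 (exact permutation p = 0.0317, adjusted 0.0635), a change that passed without SP-C+ replicate 5 (-0.73, adjusted exact permutation p = 0.0212) and without replicates 4 and 5 (-0.89, adjusted 0.0286). For this pair the arrays left out were the SP-C+ arrays nearest the Axin2+ arrays, so these passes are no added support. Cdkn1b minus Cdkn1c changed by -0.35 (exact permutation p = 0.230, adjusted 0.307).

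**Figure D2:**
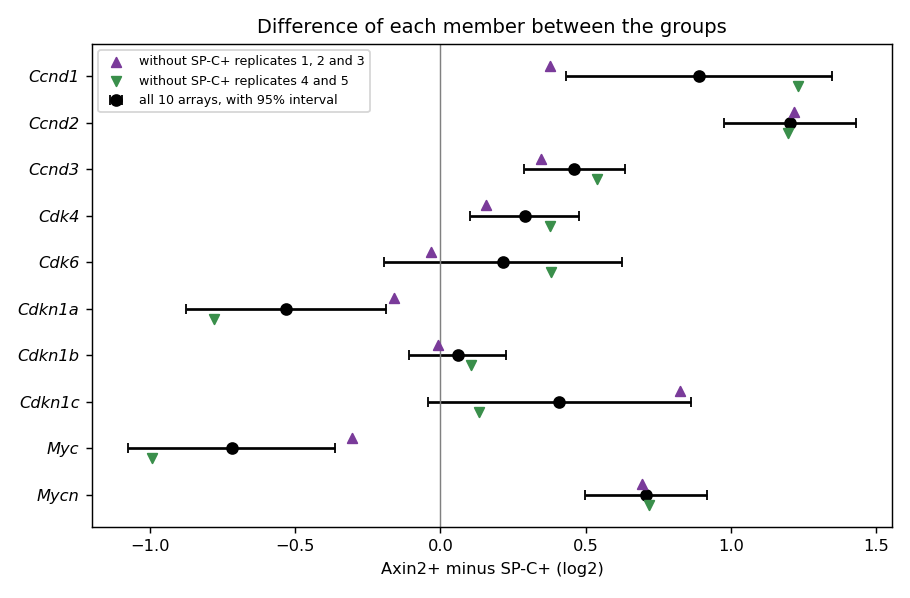
Axin2+ minus SP-C+ difference of each member on the log2 scale (horizontal axis) with all 10 arrays (black, 95% interval) and with either subset of SP-C+ arrays left out (triangles). Ccnd2 stays near 1.20 and Mycn near 0.71 in all fits shown, whereas Ccnd1, Cdkn1a and Myc move towards 0 without SP-C+ replicates 1, 2 and 3.

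The Myc genes moved in opposite directions. Myc measured 9.06, 9.12, 9.11, 8.39 and 8.42 in SP-C+ replicates 1 to 5 and 8.15, 7.88, 8.28, 8.29 and 7.90 in Axin2+ replicates 1 to 5. The groups did not overlap, but SP-C+ replicates 4 and 5 lay close to the highest Axin2+ array. The difference was -0.72 ± 0.16 SE, 1.65-fold lower in Axin2+ arrays (adjusted p = 0.00835 in limma), and it was -0.31 without SP-C+ replicates 1, 2 and 3, where it did not pass (adjusted p = 0.186 in limma).

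Mycn measured 6.96, 6.90, 6.80, 6.75 and 7.07 in SP-C+ replicates 1 to 5 and 7.85, 7.47, 7.54, 7.45 and 7.70 in Axin2+ replicates 1 to 5. Every Axin2+ array lay above every SP-C+ array, with SP-C+ replicates 4 and 5 the lowest and the highest of their group. The difference was 0.71 ± 0.10 SE, 1.63-fold (adjusted p = 2.17e-04 in limma), and it was 0.70 without SP-C+ replicates 1, 2 and 3 (adjusted p = 0.0105 in limma). Within arrays, Mycn minus Myc was -1.92 ± 0.41 (SD, n = 5) in SP-C+ and -0.50 ± 0.28 in Axin2+ arrays, a change of 1.43 (exact permutation p = 0.00794, adjusted 0.0212) that was 1.0 without SP-C+ replicates 1, 2 and 3 and 1.71 without replicates 4 and 5.

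**Figure D3:**
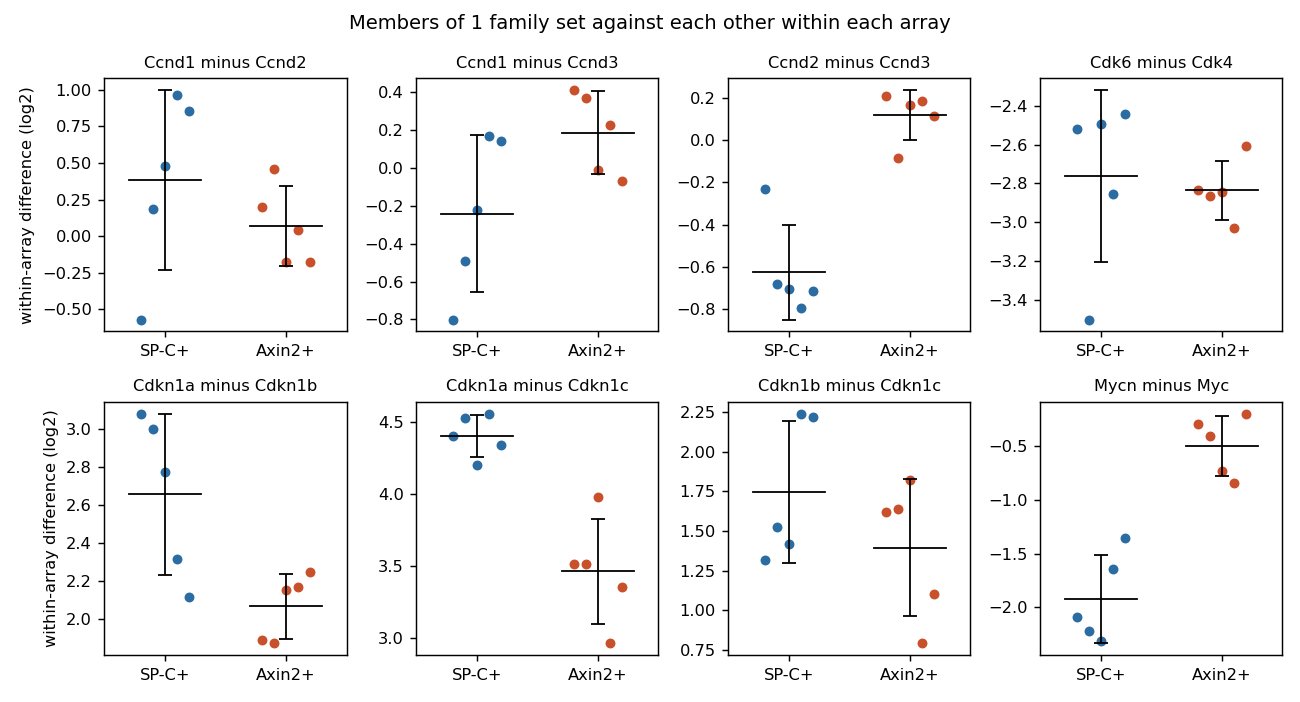
Within-array log2 difference of family members (vertical axis, own scale per panel) on the 5 SP-C+ (blue) and 5 Axin2+ (red) arrays, with the group mean (line) and SD (bar). The groups do not overlap for Ccnd2 minus Ccnd3, Cdkn1a minus Cdkn1c and Mycn minus Myc, where the changes were 0.74, -0.94 and 1.43.

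The members differed in how they followed the S phase and mitosis genes of the same array. Of those 24 genes 18 rose and 0 fell in limma (20 and 0 at an unadjusted p under 0.05), with a median difference of 0.89, Cdk1, the mitotic kinase gene, at 1.96 and Mcm5, a subunit gene of the replicative helicase, at 1.83 (1.02 without SP-C+ replicates 1, 2 and 3). Without SP-C+ replicates 1, 2 and 3 the count was 8, and Cdk1 did not pass (0.84, adjusted p = 0.238 in limma). Ccnd1 was lowest, and Cdkn1a and Myc were highest, on SP-C+ replicates 1, 2 and 3, the arrays with the lowest mean of that list. Ccnd2 and Mycn, by contrast, separated SP-C+ replicates 4 and 5 from Axin2+ replicate 5, although the list means of these 3 arrays were close, at 7.79, 8.0 and 7.88: Ccnd2 was 9.28 and 9.41 against 10.46, and Mycn 6.75 and 7.07 against 7.70. On the same 3 arrays Ccnd1 was 10.25 and 10.26 against 10.28, and Cdkn1a 11.85 and 11.70 against 11.82. Myc differed on these arrays, at 8.39 and 8.42 against 7.90, so it did not follow the list mean there as Ccnd1 and Cdkn1a did. Cdkn1c (7.30 and 7.36 against 8.47) and Ccnd3 (10.08 and 10.12 against 10.35) differed there too. For Cdk4, Cdk6 and Cdkn1b, Axin2+ replicate 5 lay between SP-C+ replicates 4 and 5. All of these comparisons rest on 1 Axin2+ array. With 5 arrays in a group and groups that stand apart, no correlation was computed.

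**Figure D4:**
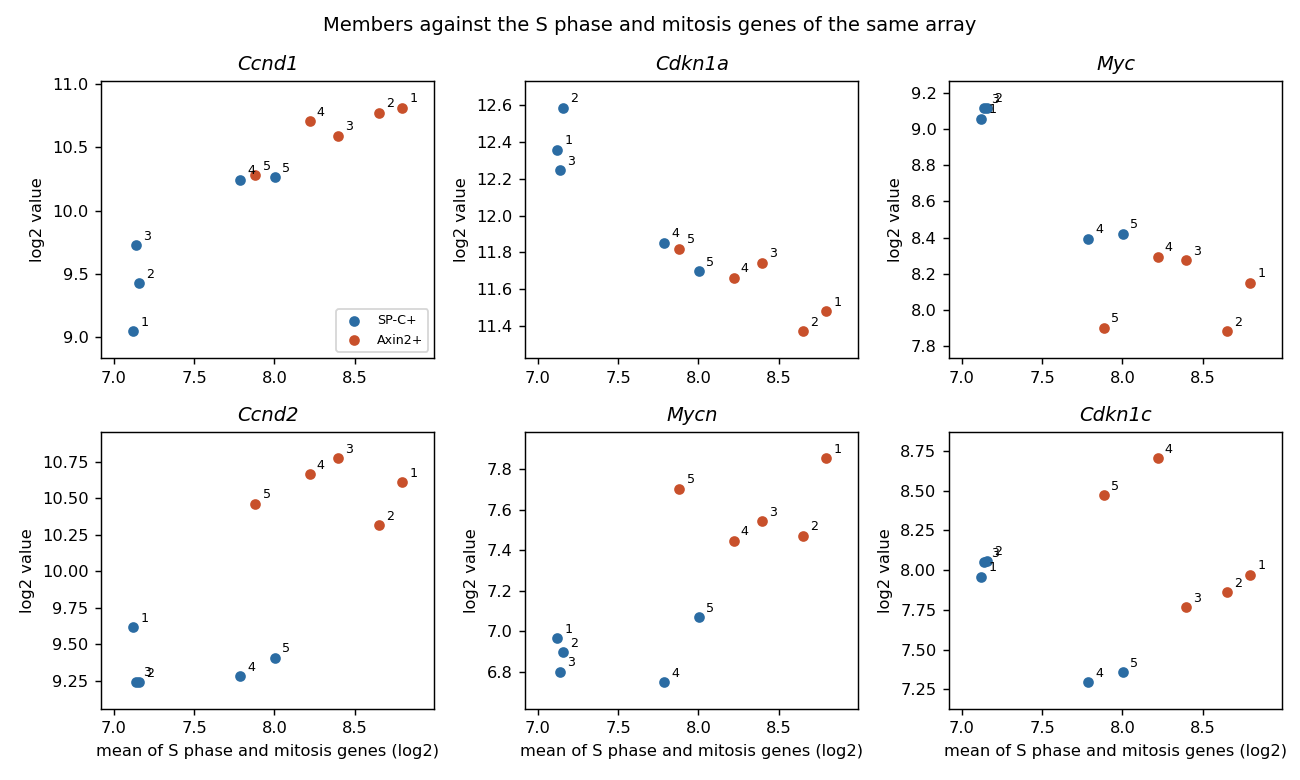
Log2 value of 6 members (vertical axis) against the mean log2 value of 24 S phase and mitosis genes (horizontal axis) on each array, with replicate numbers. At list means near 8, SP-C+ replicates 4 and 5 and Axin2+ replicate 5 share nearly the same Ccnd1 and Cdkn1a values but differ in Ccnd2, Mycn, Myc and Cdkn1c.

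Further genes of G1/S control were taken from a list of 32, of which 31 were measured. Of these, 9 rose, 2 fell and 20 did not pass, with a median difference of 0.0061 against -0.045 for all genes. The sign of that median is not settled, since it ran from -0.087 (each array centred on its median, where 6 genes fell) to 0.049 over the alternatives. E2f1, an activating E2F gene, measured 6.79 to 7.21 in SP-C+ arrays, with a median of 6.90, and 8.14 to 8.50 in Axin2+ arrays, with a median of 8.39. It rose by 1.38 ± 0.10 SE (adjusted p = 7.96e-07 in limma), with a wide gap between the groups, and by 1.29 without SP-C+ replicates 1, 2 and 3. Cdkn2b, whose product p15 inhibits Cdk4 and Cdk6, rose by 1.59 ± 0.30 SE, 3.02-fold (adjusted p = 0.00237 in limma). It measured 9.46, 8.26, 8.14, 7.71 and 7.43 in SP-C+ replicates 1 to 5 and between 9.54 and 10.08 in Axin2+ arrays, so that SP-C+ replicate 1, the array with the highest endothelial markers, came closest to the Axin2+ arrays. Its difference was 2.22 without SP-C+ replicates 1, 2 and 3 and 1.17 without replicates 4 and 5, below that of E2f1 in the same fit (1.45).

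The falls in that list were Rbl2, which encodes the retinoblastoma relative p130 of resting cells, and Cables1, which encodes a protein that binds cyclin-dependent kinases. Rbl2 was lower by -0.40 ± 0.07 SE (adjusted p = 0.00218 in limma) and Cables1 by -0.68 ± 0.10 SE (adjusted p = 3.88e-04), and neither overlapped between the groups. Ccne1, the cyclin E gene measured, stood at 7.0 and 7.01, a difference of 0.014 (adjusted p = 0.964 in limma), and its kinase partner Cdk2 was at -0.22 (adjusted p = 0.118). Ccna2, the cyclin A gene of the S phase and mitosis list, rose by 1.40 ± 0.41 SE (adjusted p = 0.0336 in limma), with groups that overlapped. It measured 6.94, 6.49, 6.14, 8.09 and 8.36 in SP-C+ replicates 1 to 5 and between 7.92 and 9.25 in Axin2+ arrays. SP-C+ replicates 4 and 5 thus lay inside the Axin2+ range, and the rise rested on SP-C+ replicates 1, 2 and 3. Ccne1, Cdk2 and Ccna2 were named after their values were seen, as genes of the steps after cyclin D.

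**Figure D5:**
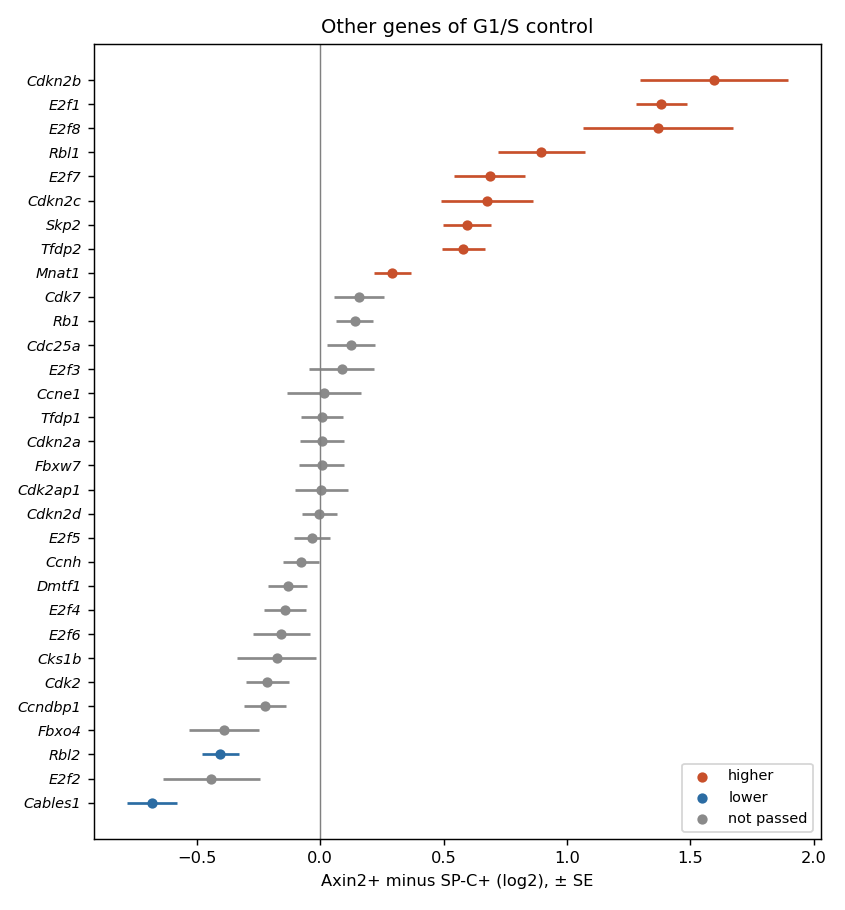
Axin2+ minus SP-C+ log2 difference (horizontal axis) with its SE for 31 further genes of G1/S control, coloured by the call in limma at an adjusted p under 0.05. The 9 genes that rose include Cdkn2b (1.59) and E2f1 (1.38), and the 2 that fell are Cables1 and Rbl2.

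Of 15 genes of the Myc network, 1 rose and 3 fell, a total of 4 against 17.6% of all genes, with a median of -0.063. Ruvbl2, a helicase-like cofactor gene, rose by 0.39 ± 0.07 SE (adjusted p = 0.00209 in limma). Mlx, the Max-like partner gene of the glucose-sensing Mondo factors, was lower by -0.81 ± 0.12 SE (adjusted p = 5.75e-04), or by -0.51 without SP-C+ replicates 1, 2 and 3. Mxi1, a Max-binding repressor gene, was at -0.36 ± 0.11 SE (adjusted p = 0.0378 in limma), a call lost when SP-C+ replicates 4 and 5 were left out (-0.24, adjusted p = 0.136) and also in 9 of the 10 fits that left out 1 array (the highest adjusted p was 0.0855, with Axin2+ replicate 3 left out). Lower genes of the network numbered 1 without SP-C+ replicate 3, without Axin2+ replicate 1 or 3, without SP-C+ replicates 4 and 5, or with Y-linked expression as a covariate.

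Of 21 measured targets that Myc proteins are known to drive, mostly genes of ribosome and nucleotide synthesis, 1 rose, 1 fell and 19 did not pass, with a median of -0.0096. Srm, spermidine synthase, was at 0.46 ± 0.14 SE (adjusted p = 0.0415 in limma) and Shmt1, a one-carbon enzyme gene, at -0.31 ± 0.10 SE (adjusted p = 0.0456). With SP-C+ replicates 4 and 5 left out, neither Srm nor Shmt1 passed in limma (adjusted p of 0.158 and 0.194), and 0 or 1 genes of the list passed in 9 of the 10 fits that left out 1 array. Without SP-C+ replicates 1, 2 and 3 the calls numbered 5, 3 higher and 2 lower.

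Targets of p53, the factor best known for inducing Cdkn1a, had a median of -0.15 over the 16 measured. Of these, 1 was higher and 3 were lower, against 8.61% higher and 8.95% lower over all genes. Sesn2, a stress-induced sestrin gene, was lower by -0.85 ± 0.13 SE (adjusted p = 7.14e-04 in limma), or by -0.53 without SP-C+ replicates 1, 2 and 3. Plk2, a polo-like kinase gene, was at -0.77 ± 0.24 SE (adjusted p = 0.0407 in limma), a call lost in 7 of the 10 fits that left out 1 array and without SP-C+ replicates 1, 2 and 3 (adjusted p = 0.191). Phlda3, an inhibitor of Akt, rose by 0.45 ± 0.10 SE (adjusted p = 0.0101), a call lost without SP-C+ replicates 4 and 5 (adjusted p = 0.0555). Mdm2, the p53 feedback gene, stood at 0.19 (adjusted p = 0.243 in limma) and was named after its value was seen. Lower p53 targets numbered 6 with each array centred on its median and 5 with quantile normalization. Over all genes the lower calls also grew in these fits, from 1985 to 4412 and 2374, so the added falls are not particular to this list.

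The driver genes of the labels were Axin2, which was lower in Axin2+ than in SP-C+ arrays (7.93 against 8.46), and Sftpc, at 14.11 and 14.02. Axin2 differed by -0.53 (adjusted p = 3.28e-04 in limma), and its highest adjusted p over the alternative fits was 0.0093, without SP-C+ replicates 1, 2 and 3. Sftpc did not pass (0.10, adjusted p = 0.324 in limma), although every Axin2+ array lay above every SP-C+ array (exact permutation p = 0.00794, not adjusted). The Sftpc difference was 0.0067 with each array centred on its median and 0.011 with quantile normalization. Its values lay near the top of the range of the data, where a difference may be understated. The test therefore does not show that Sftpc was level between the groups. The position of the Axin2 probe set relative to the Cre insertion is not known here, so the Axin2 level does not check the labels.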

How the data were processed

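RNA of 10 sorted samples was measured on Affymetrix arrays, 5 SP-C+ and 5 Axin2+, grouped by the sample titles. The deposited table holds log2 values per probe set that the authors had normalized. RMA, oligo and limma appear in the submitters' processing notes, with no version or role, and values of 1.69 to 14.16 were read as base 2. Background signal in such values understates the change of dim genes. The number of arrays limits the precision.

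Of 41345 probe sets, 23521 carry 1 gene symbol in the platform annotation, which can be old, 1814 several and 16010 none. Where a gene had several, the probe set with the highest mean was kept, which left 22180 genes. The test between groups was that of limma (version 3.58.1, R version 4.3.3; lmFit, then eBayes; no covariate, two-sided), with Benjamini-Hochberg adjustment over all genes and a threshold of 0.05. Differences are Axin2+ minus SP-C+. Pairs of family members were compared by exact permutation of the arrays. The fit was tested on simulated data with 200 changed genes, where it recovered 53.7% of log2 changes of 0.5 and 92.5% of those of 1. The simulation changed far fewer genes than the 3894 called here and gave both groups the same SD for each gene. These rates therefore do not describe the fit to the real data.

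Of 203 names in 13 further lists, 193 matched a measured gene. Members, lists and alternatives were chosen with earlier results of these data known. Named were all members, in each pathway list the 2 called genes that rose most and the 2 that fell most, at most 1 of each in a marker list, the 2 genes most like each called member, and Axin2 and Sftpc; exceptions are stated. Alternatives were a replicate block, median centring, quantile normalization, filters at the 25th and 50th percentile, means over probe sets, a trended robust variance, array weights, a Y-linked covariate, and leaving out arrays.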

Additional observations from a re-analysis of the deposited data

How the results depend on the processing

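Over 21 alternative fits, Ccnd2, Ccnd3 and Mycn passed in all, Ccnd1 and Myc in 20, Cdkn1a in 11 and Cdk4 in 10, while Cdk6, Cdkn1b and Cdkn1c passed in none. No call changed direction. With Y-linked expression as a covariate, Cdk4 (0.30, adjusted p = 0.0659 in limma) and Cdkn1a (-0.53, adjusted p = 0.0727) did not pass. The members called numbered 7, or 5 to 7 without 1 array, and 3 without SP-C+ replicates 1, 2 and 3, a fit that also has fewer samples. G1/S control genes called numbered 11, or 10 to 12 without 1 array. Genes called overall numbered 3894, or 2974 to 4023 without 1 array, and 5973 with each array centred on its median. Pairs that changed unequally numbered 3, or 3 to 4 without 1 array, and 5 without SP-C+ replicates 4 and 5. Without SP-C+ replicates 1, 2 and 3 only values are given for the pairs, because 2 arrays against 5 leave too few assignments.

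The replicate numbers were not treated as pairs, because deviations of same-numbered arrays correlated at -0.23 to 0.014 and 0 of 5 SP-C+ arrays correlated best with their own number. With the number as a block, 2979 genes and 5 members passed in limma. The pairs could not pass there, since an exact sign-flip test over 5 numbers gives no p below 0.0625. No member has a further probe set of its own symbol alone, so no fit with another probe set was run. The fit with means over probe sets counts among the alternative fits, but for the members it used the same values as the main fit. Its member calls are therefore no added support. The cause of these dependences was not tested.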

Other observations

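Genes whose pattern over the 10 arrays was most like that of a called member were found by the root mean square difference on the log2 scale, after each gene was centred on its own mean. Nearest to Ccnd1 were Gins2, a subunit gene of the replicative helicase complex (0.13), and Bard1, the partner gene of Brca1 (0.14). They differed between the groups by 0.86 and 0.85, against 0.89 for Ccnd1. Nearest to Ccnd2 were the tetraspanin gene Tspan8 (0.093) and Plekha1 (0.10), neither of which is a gene of the cell cycle. They differed by 1.11 and 1.07, against 1.20 for Ccnd2.

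Nearest to Mycn were Cfap73, a gene of motile cilia (0.10), and Zbtb8b (0.10), which differed by 0.78 and 0.79, against 0.71 for Mycn. Nearest to Myc were Itga5, the integrin alpha 5 gene (0.13), and Ttpa, the gene of the vitamin E transfer protein (0.14), both lower in Axin2+ arrays (-0.73 and -0.68). Ccnd3 had Mical2 (0.042) and Prkar1b (0.051) nearest, Cdk4 had Erc1 (0.043) and Myo1e (0.059), and Cdkn1a had Amigo2 (0.10) and Tmem171 (0.10). The distances of genes with small differences are small by construction, so they are not comparable between members. Genes chosen as close over these arrays also differ alike between the groups by construction, so the matching differences are no further result.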
